A study of Mus musculus with 12 samples.

Results

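The mitosis genes described here are 40 genes chosen by name, among them Aurka, that act in entry into mitosis, spindle assembly, chromosome segregation and cytokinesis. They were matched by gene symbol in a table of 30165 genes measured in OPCs (oligodendrocyte precursor cells) and in a table of 17918 genes measured in neurons, and all 40 were found in both. The libraries came from the cortex of mice in which NG2-CreERT2 and floxed alleles allowed tamoxifen, given on postnatal days 7 and 8, to delete Cav1.2 (Cacna1c) and Cav1.3 (Cacna1d) in NG2-expressing cells (dKO), and from control mice (ctl), which the labels call WT. The methods do not say whether ctl mice carried the Cre or the floxed alleles, and the age at isolation is not given in the sources used here. OPCs were bound by magnetic beads for CD140, NG2 and O4, while neurons were the cells left once those carrying ACSA-2, CD31, CD11b or O4 had been taken out. Each of the 4 groups had 3 libraries, each pooled from 2 mice. The Cre is expressed in NG2-positive cells, which include OPCs and pericytes, so the neurons of dKO mice were not themselves the target of the deletion.

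Mitosis is driven by cyclin B bound to the kinase Cdk1, and by the Aurora and Polo-like kinases, which build the spindle and correct the attachment of chromosomes to it. The spindle assembly checkpoint holds back the anaphase-promoting complex until each kinetochore is attached, after which cyclin B and securin are degraded and the cell divides. Most of these genes are transcribed mainly late in the cell cycle, and their RNA is widely used as a sign of dividing cells. OPCs keep dividing in the adult brain, while neurons are postmitotic and express little of this programme.

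Total counts per library were 14935963 to 19812274 in OPCs and 15052892 to 16344601 in neurons. In OPC libraries the normalised read counts of Cacna1c were 373, 411 and 439 in ctl and 252, 337 and 312 in dKO, which did not overlap (log2 fold change -0.44, edgeR adjusted p = 0.349), and those of Cacna1d were 251, 191 and 255 in ctl and 92.8, 153 and 232 in dKO, which overlapped. Reads were counted over whole genes, so those outside the deleted exons remained in these counts. The labelled cell types were compared with marker lists by summed TPM, a level scaled by gene length and library size. In the OPC libraries 15 oligodendrocyte markers summed to 39275 to 65707 TPM and 15 OPC markers to 1679 to 3173 TPM, while 12 ependymal and choroid plexus markers summed to 31298 to 69613 TPM. In the neuron libraries 15 neuron markers summed to 558 to 998 TPM, 15 endothelial markers to 7070 to 18084 TPM, the ependymal and choroid plexus markers to 12533 to 67843 TPM and 12 blood cell markers to 28000 to 133676 TPM, so markers of other cell types exceeded those of neurons in these libraries. Y-linked genes also separated libraries of 1 group. They reached 390 and 347 CPM (counts scaled by library size alone) in ctl replicate 1 and dKO replicate 1 of the neurons and at most 3.73 CPM in the other neuron libraries, and in OPCs dKO replicate 2 alone had 0 CPM.

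Most of the genes also held the same motifs in their promoters, which the choice by name did not use. Promoters of RefSeq on GRCm38.p6, from 250 bases before to 50 after the transcription start, were found for 34 of the 40 genes, as 36 sequences, since Ect2 and Prc1 each had a second start. No entry was matched for Aurkb, Ccna2, Dlgap5, Incenp, Kif20a and Tpx2. The sequences were searched on both strands for CCAAT (or ATTGG), the box bound by NF-Y, and for TTTGAA (or TTCAAA), the core of the cell cycle homology region bound by MuvB complexes. A CCAAT box was present in 83.3% of the members' promoters and in 37.4% of all 32851 promoters of the same length. TTTGAA was present in 77.8% and 17.9%, and both in 69.4% and 6.95%, respectively. These matches describe the letters and not occupied sites, and the motifs can share at most 1 base. Birc5, Nuf2 and Nusap1 had neither motif. The promoters of Aurka, Plk1 and Cdc20, which in neurons were above ctl in dKO at an unadjusted p under 0.05, and of Top2a and Prc1, which in OPCs passed the same threshold upwards and downwards, are shown 5′ to 3′ with both motifs in capitals. They lie at chr2:172370521-172370820 (minus strand) for Aurka, chr7:122159185-122159484 (plus strand) for Plk1, chr4:118437294-118437593 (minus strand) for Cdc20, chr11:99024140-99024439 (minus strand) for Top2a and chr7:80294201-80294500 (plus strand) for the first start of Prc1.
Aurka: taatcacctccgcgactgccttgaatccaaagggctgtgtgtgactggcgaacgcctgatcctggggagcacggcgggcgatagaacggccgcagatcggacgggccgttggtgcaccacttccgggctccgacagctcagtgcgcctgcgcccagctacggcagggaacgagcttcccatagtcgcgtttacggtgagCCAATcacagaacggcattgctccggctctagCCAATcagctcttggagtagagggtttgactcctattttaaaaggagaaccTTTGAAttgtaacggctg
Plk1: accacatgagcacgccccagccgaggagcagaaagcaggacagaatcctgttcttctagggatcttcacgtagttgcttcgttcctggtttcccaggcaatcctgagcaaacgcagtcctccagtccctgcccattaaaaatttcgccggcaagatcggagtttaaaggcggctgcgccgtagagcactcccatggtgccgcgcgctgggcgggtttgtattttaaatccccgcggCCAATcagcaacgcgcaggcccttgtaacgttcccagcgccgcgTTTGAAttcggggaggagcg
Cdc20: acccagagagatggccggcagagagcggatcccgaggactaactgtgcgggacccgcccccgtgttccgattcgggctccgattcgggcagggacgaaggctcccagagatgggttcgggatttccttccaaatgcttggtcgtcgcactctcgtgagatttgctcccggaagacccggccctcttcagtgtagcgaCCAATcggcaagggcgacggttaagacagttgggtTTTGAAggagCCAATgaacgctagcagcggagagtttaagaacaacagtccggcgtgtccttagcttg
Top2a: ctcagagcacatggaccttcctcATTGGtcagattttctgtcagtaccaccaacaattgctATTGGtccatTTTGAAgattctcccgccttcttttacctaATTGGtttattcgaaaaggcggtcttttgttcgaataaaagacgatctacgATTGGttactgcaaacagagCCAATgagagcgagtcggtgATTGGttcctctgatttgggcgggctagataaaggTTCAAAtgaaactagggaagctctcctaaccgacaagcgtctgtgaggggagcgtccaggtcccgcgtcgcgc
Prc1: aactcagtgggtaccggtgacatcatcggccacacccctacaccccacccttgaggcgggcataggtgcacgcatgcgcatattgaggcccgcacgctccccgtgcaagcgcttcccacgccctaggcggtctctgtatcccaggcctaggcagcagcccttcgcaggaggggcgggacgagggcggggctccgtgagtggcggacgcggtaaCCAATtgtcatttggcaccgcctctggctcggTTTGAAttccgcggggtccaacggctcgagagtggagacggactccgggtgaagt
Top2a had 6 CCAAT boxes and 2 TTTGAA motifs. Of the other promoters shown, Aurka and Cdc20 had 2 boxes each and Plk1 and Prc1 had 1 each. Ube2c, which is not shown, also had 6.

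The first comparison asked whether these genes differed in neurons of dKO mice. All 40 members had a log2 fold change above 0 in dKO against ctl neurons, with a median of 0.50 where the median of all 14352 genes tested was 0.01. The fold changes ranged from 0.27 for Ndc80 to 1.06 for Dlgap5. The largest were those of Dlgap5 and the mitotic kinases Aurka, Nek2 and Plk1. Of the 40 members, 20 had an unadjusted p under 0.05, all higher in dKO, beside 4.96% of all genes tested, and none was lower at that threshold (4.04% of all genes). Adjusted over all genes, edgeR's quasi-likelihood test called 0 of the 40 members and 0.00% of all genes, and the members' adjusted p was 0.521 to 0.809. DESeq2 called 2 members, Aurka (adjusted p = 0.0319) and Dlgap5 (adjusted p = 0.0399), beside 0.613% of all genes. The paper also lists Aurka among genes raised in dKO neurons, and earlier results of these data were known when the members were chosen. The dKO libraries lay wholly above the ctl libraries for 18 members, against 7.50% of all genes, and wholly below for 0, against 7.82%. In bulk samples, more cells of a type and more RNA per cell cannot be told apart.

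**Figure D1:**
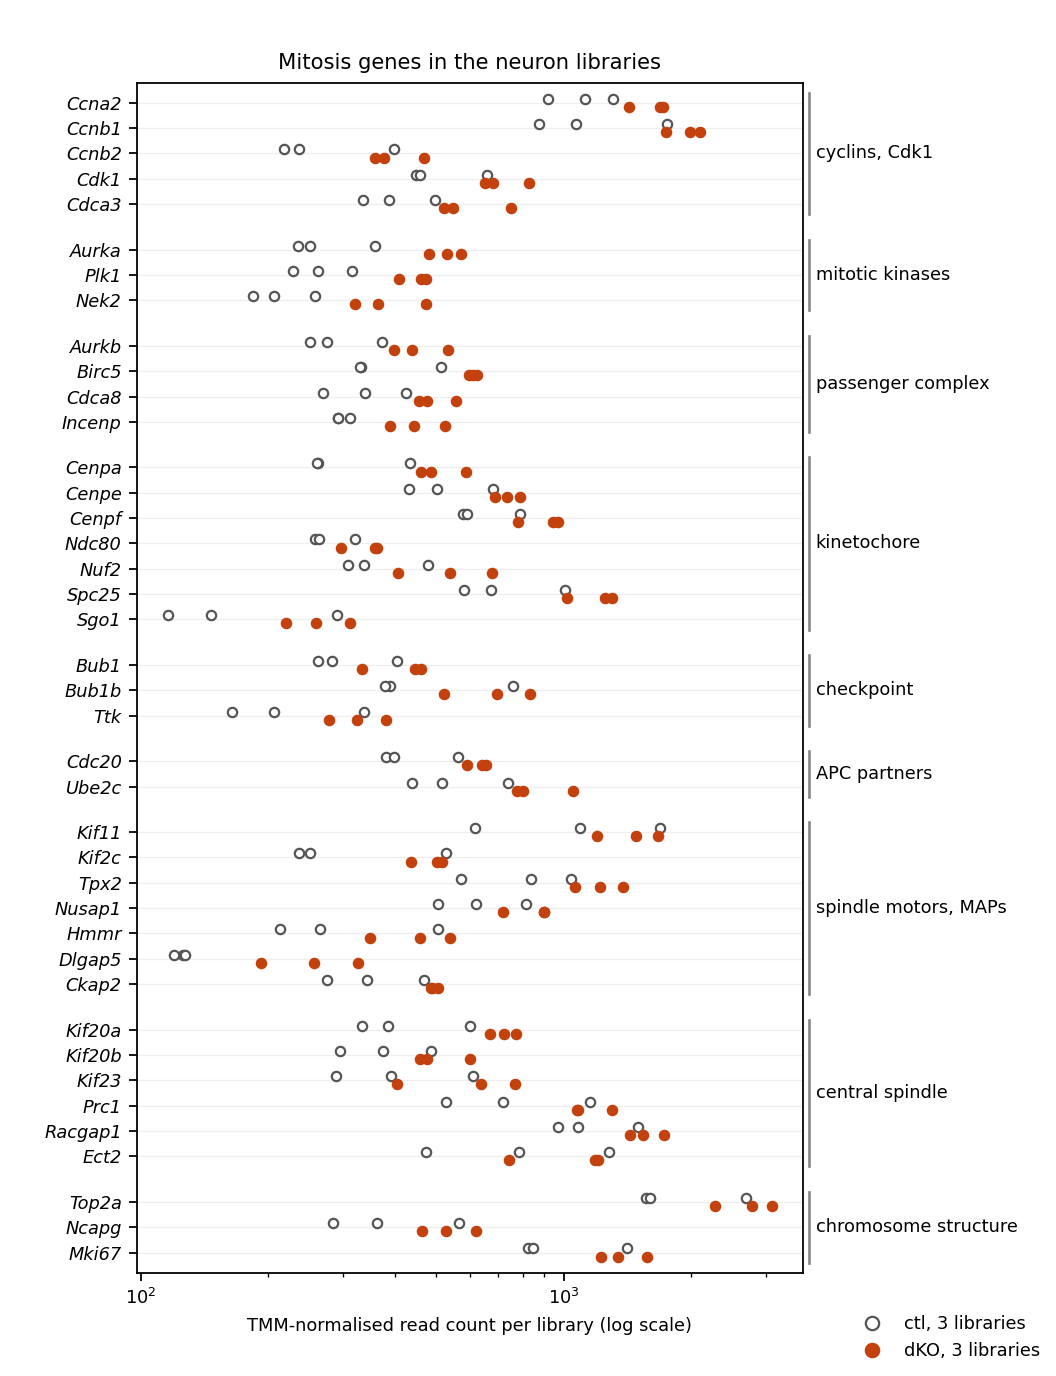
TMM-normalised read counts (x axis, log scale) of the 40 mitosis genes in each neuron library, ordered by role. Open circles are the 3 ctl libraries and filled circles the 3 dKO libraries. For most genes 1 ctl circle lies close to or among the dKO circles, and the other ctl circles lie to the left.

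Aurora A kinase (Aurka), which matures centrosomes and builds the spindle, had normalised counts of 236, 252 and 359 in ctl and 573, 479 and 530.3 in dKO, given in the order of replicates 1 to 3 here and in the sentences that follow. The groups did not overlap, and the means were 282 ± 67.0 in ctl and 527 ± 47.1 in dKO (SD, n = 3). The log2 fold change was 0.90 ± 0.20 (standard error, here and for each fold change given with ±, with an edgeR unadjusted p = 0.00178), and across the fits that each left out 1 library it stayed between 0.79 and 1.11. Polo-like kinase Plk1, which acts with Aurka at mitotic entry, was at 229.5, 263 and 316 in ctl and 473, 407 and 459 in dKO, and its log2 fold change was 0.73 ± 0.18. Nek2, a kinase that separates centrosomes, was at 185, 206 and 258 in ctl and 320.3, 473 and 364 in dKO, and its log2 fold change was 0.84 ± 0.22. Every dKO library was above every ctl library for the 3 kinases, and each kept an unadjusted p under 0.05 whichever library was left out.

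Of the cyclins, Cdk1 and the factor Cdca3, 4 of 5 had an unadjusted p under 0.05. Cyclin A2 (Ccna2), which is active from S phase to early mitosis, was at 916, 1119.5 and 1308 in ctl and 1712, 1692 and 1429 in dKO, and the groups did not overlap. Cyclin B1 (Ccnb1), the mitotic partner of Cdk1, was at 875, 1066 and 1752 in ctl and 2098, 1987 and 1741 in dKO. Here ctl replicate 3 exceeded the lowest dKO library, while the other ctl libraries lay below all of them. Cdk1 was at 447, 458 and 657 in ctl and 829.7, 679 and 652 in dKO, with the same overlap by ctl replicate 3. Cdca3, part of the ubiquitin ligase that frees Cdk1 from its inhibitory kinase Wee1, was at 336, 387 and 495 in ctl and 751, 547 and 520.0 in dKO without overlap. The log2 fold changes were 0.53 for Ccna2, 0.66 for Ccnb1, 0.47 for Cdk1 and 0.58 for Cdca3, and that of Ccnb1 was 1.00 without ctl replicate 3. The remaining cyclin, Ccnb2, had a log2 fold change of 0.49 (edgeR unadjusted p = 0.0877).

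The chromosomal passenger complex corrects wrong chromosome attachments and later acts in cytokinesis. All 4 of its subunits had an unadjusted p under 0.05, and in none did the groups overlap. Its kinase Aurkb was at 275, 252 and 373 in ctl and 534, 438 and 397 in dKO. Its scaffold Incenp was at 294, 293 and 313 in ctl and 444, 523 and 388 in dKO, with ctl libraries closer to each other than for the other subunits. Survivin (Birc5), which brings the complex to centromeres, was at 332, 329.7 and 513 in ctl and 597, 622 and 611 in dKO, and borealin (Cdca8), which binds it, was at 270.2, 338 and 424 in ctl and 557, 455 and 474 in dKO. The log2 fold changes were 0.61 for Aurkb, 0.59 for Incenp, 0.64 for Birc5 and 0.53 for Cdca8, with standard errors of 0.17 to 0.21.

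Of the 7 centromere and kinetochore genes, 4 had an unadjusted p under 0.05. The centromeric histone Cenpa was at 263, 261 and 434 in ctl and 588, 460.1 and 486 in dKO, and the Ndc80 complex subunit Spc25 at 581, 672 and 1009 in ctl and 1297, 1015 and 1249 in dKO. The kinetochore motor Cenpe was at 432, 501 and 681 in ctl and 735, 789.5 and 688 in dKO. These groups did not overlap, though for Spc25 and Cenpe ctl replicate 3 lay just below the lowest dKO library. Cenpf, a large protein of the outer kinetochore, was at 578, 591 and 789 in ctl and 941, 971 and 778 in dKO, and ctl replicate 3 exceeded dKO replicate 3. The log2 fold changes were 0.68 for Cenpa, 0.65 for Spc25, 0.46 for Cenpe and 0.46 for Cenpf. Ndc80, Nuf2 and the cohesin protector Sgo1 had log2 fold changes of 0.27, 0.53 and 0.52 and overlapping groups.

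None of the 3 checkpoint genes Bub1, Bub1b and Ttk, which delay anaphase, had an unadjusted p under 0.05, and their log2 fold changes were 0.38 to 0.47. Both partners of the anaphase-promoting complex did. Its activator Cdc20 was at 381, 397 and 564 in ctl and 591, 653 and 639.8 in dKO, with a log2 fold change of 0.49. Its ubiquitin-conjugating enzyme Ube2c was at 438, 515 and 739 in ctl and 1049, 799 and 776 in dKO, with a log2 fold change of 0.63. Both pairs of groups were separate.

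Among 7 spindle motors and microtubule-associated proteins, Dlgap5, which stabilises spindle fibres near chromosomes, was at 126, 119.6 and 128 in ctl and 193, 258 and 327 in dKO. The ctl libraries differed little from each other, and the log2 fold change was 1.06 ± 0.25 (edgeR unadjusted p = 0.00267). Tpx2, which activates Aurka on spindle microtubules, was at 572, 838 and 1038 in ctl and 1063, 1379 and 1218 in dKO, with a log2 fold change of 0.58. Without ctl replicate 1 that value was 0.38 (edgeR unadjusted p = 0.075), and Tpx2 had an unadjusted p under 0.05 in 2 of the 6 fits that left out a library. For the other 5, Ckap2, Hmmr, Kif11, Kif2c and Nusap1, the log2 fold changes were 0.36 to 0.52 and the unadjusted p was above 0.05. The groups of Ckap2 nevertheless did not overlap.

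Of 6 central spindle and cytokinesis genes, the kinesin Kif20a passed an unadjusted p of 0.05. It was at 334, 383 and 601 in ctl and 669, 769.7 and 721 in dKO. Its log2 fold change was 0.71 ± 0.22, and the groups were separate. Racgap1, a subunit of the centralspindlin complex and 1 of the 3 members with the highest CPM together with Top2a and Ccnb1, was at 967, 1079 and 1498 in ctl and 1436, 1721 and 1543 in dKO. Its log2 fold change was 0.41 (edgeR unadjusted p = 0.0562), and the groups overlapped. Without ctl replicate 3 it was 0.61 (edgeR unadjusted p = 0.0073), and without dKO replicate 1 it was 0.47 (edgeR unadjusted p = 0.041). Kif23, Kif20b, Prc1 and Ect2 had log2 fold changes of 0.49, 0.41, 0.53 and 0.31.

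The widely used proliferation markers were among the members with an unadjusted p above 0.05. Top2a, the topoisomerase that untangles sister chromatids, was at 1563, 1599 and 2695 in ctl and 2272, 3109.9 and 2780.4 in dKO, and its log2 fold change was 0.48 ± 0.23 (edgeR unadjusted p = 0.0732). Mki67, which keeps mitotic chromosomes apart, was at 825, 844 and 1411 in ctl and 1342, 1569.6 and 1227 in dKO, and its log2 fold change was 0.43 ± 0.23 (edgeR unadjusted p = 0.0926). For both, ctl replicate 3 lay among the dKO libraries. With 1 library left out the log2 fold change ranged from 0.34 to 0.78 for Top2a and from 0.29 to 0.73 for Mki67. Both had the highest value without ctl replicate 3, where edgeR's unadjusted p was 0.0040 and 0.0038, and that of Top2a was 0.037 without dKO replicate 1. The condensin subunit Ncapg had a log2 fold change of 0.41.

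**Figure D2:**
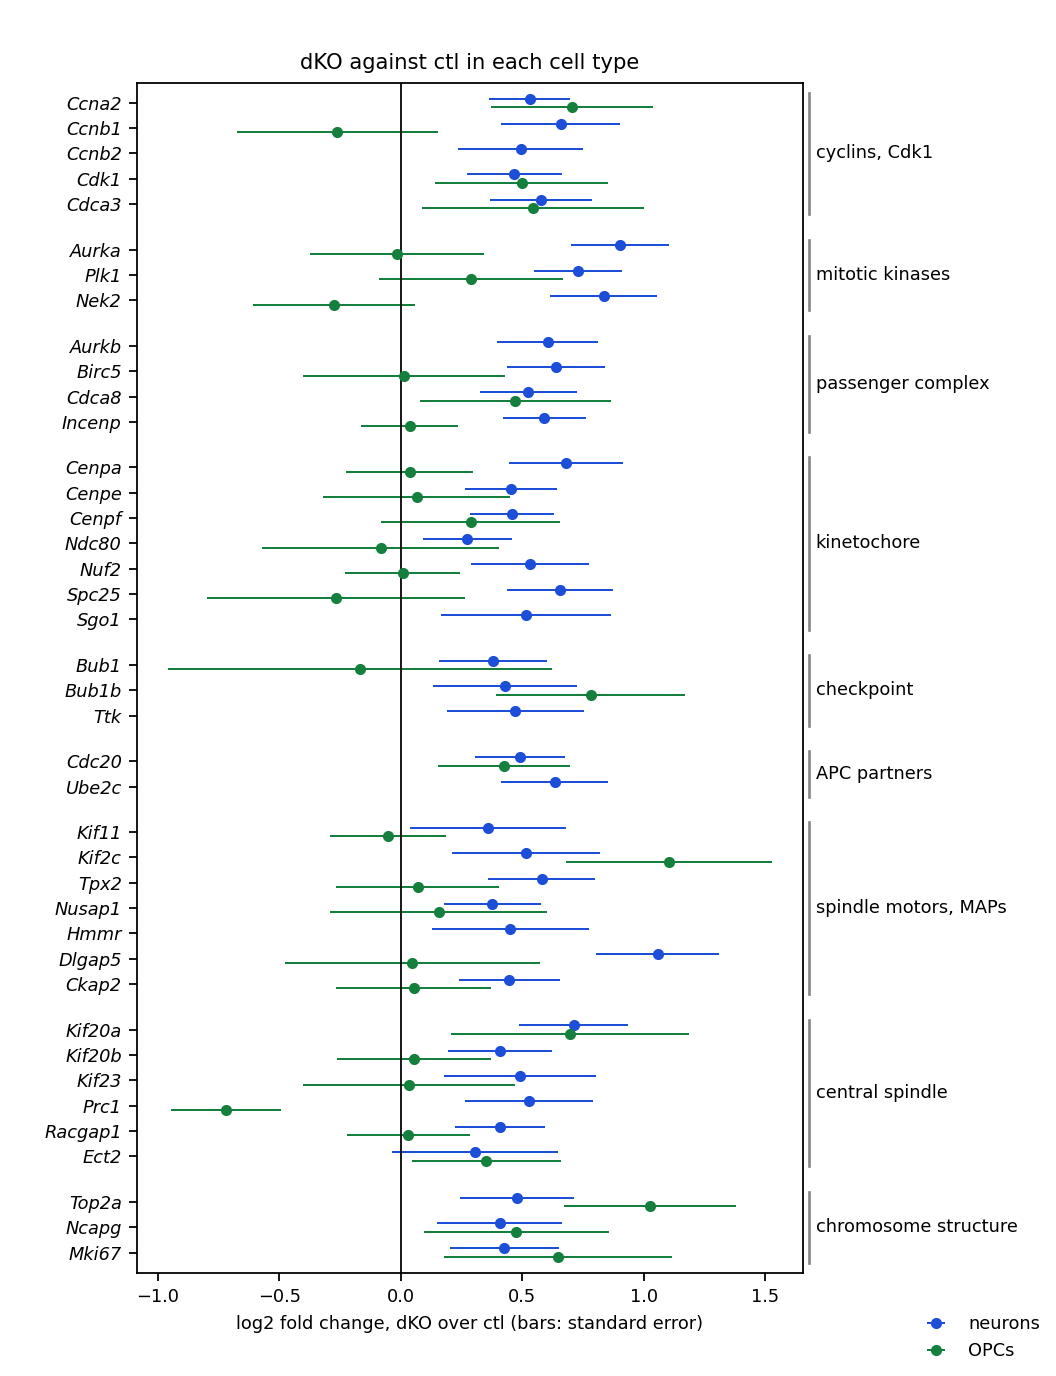
Log2 fold change of dKO over ctl (x axis) for each mitosis gene tested in neurons (40 genes) and in OPCs (34 genes), ordered by role, with bars of 1 standard error from edgeR. All neuron points lie to the right of 0, between 0.27 and 1.06, while the OPC points lie on both sides, between -0.72 and 1.10.

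The size of the neuron difference depended on single ctl libraries. Among the ctl libraries, replicate 3 had the highest normalised count for all 40 members, replicate 1 the lowest for 33 and replicate 2 the lowest for 7. Across all 6 libraries, the highest value was found in dKO replicate 2 for 18 members, in dKO replicate 1 for 16, in dKO replicate 3 for 3 and in ctl replicate 3 for 3. Without ctl replicate 3, 39 members had an unadjusted p under 0.05 (3.94% of all genes in that fit), and the median log2 fold change was 0.79. Without ctl replicate 1 the count was 8 (3.30% of all genes) and without ctl replicate 2 it was also 8 (4.26%), with medians of 0.36 and 0.41. The 8 were the same genes in both fits, Aurka, Birc5, Ccna2, Dlgap5, Incenp, Kif20a, Nek2 and Plk1, and they kept an unadjusted p under 0.05 in each of the 6 fits that left out a library. Without both libraries that held Y-linked counts, 9 members passed (3.20% of all genes) with a median of 0.37. Leaving out dKO replicate 1, 2 or 3 gave 14, 14 and 17 members (3.94%, 6.01% and 4.25% of all genes), and a term for Y-linked counts gave 25 (6.15%). Scaling by library size alone gave 27 (6.42%), with a median over all genes of 0.05. In each of these fits all 40 members stayed above 0.

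The summed level of the 40 genes was 1085, 1266 and 1885 CPM in ctl neurons and 1975, 2142 and 1931 CPM in dKO neurons. The means were 1412 ± 419 and 2016 ± 111 CPM (SD, n = 3), a ratio of 1.43. In CPM the groups did not overlap, but the gap between ctl replicate 3 and dKO replicate 3 was small beside the spread of the ctl libraries. In summed TPM they did overlap, at 762, 849 and 1133 in ctl and 1126, 1491 and 1393 in dKO.

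**Figure D3:**
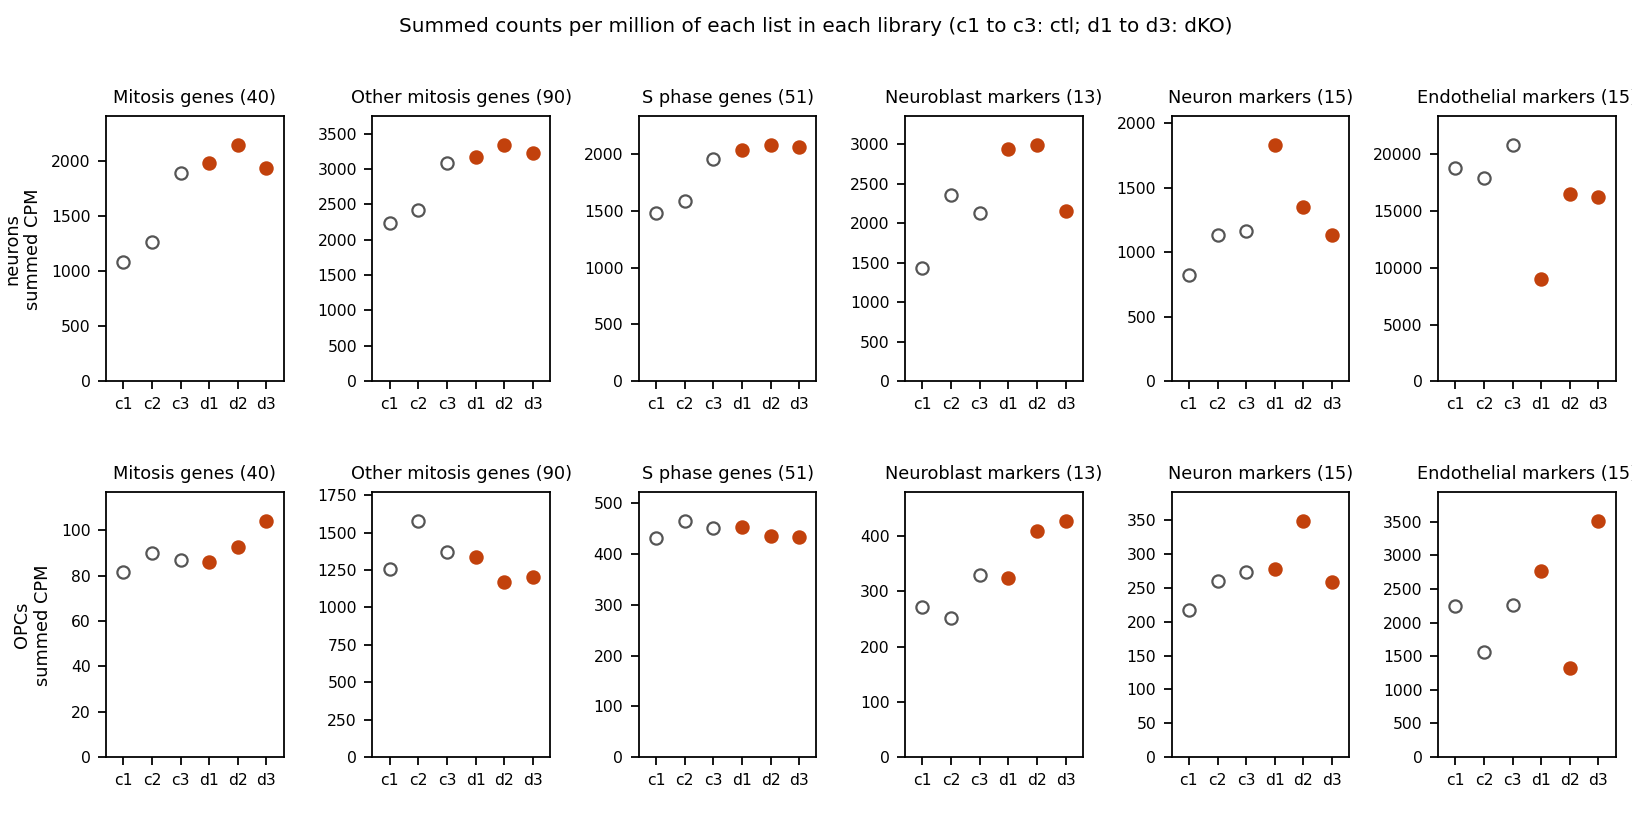
Summed CPM (y axis, from 0) of the 40 mitosis genes and of 5 other lists in each library, with neurons in the upper row and OPCs in the lower. Open circles are ctl and filled circles dKO. In neurons ctl replicate 3 is the ctl library closest to dKO for the mitosis, other mitosis and S phase genes, and ctl replicate 2 is for the neuroblast markers.

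Most other genes of the pathway also had log2 fold changes above 0 in neurons. Of 90 further mitosis genes tested, 85 were above 0 and 5 below, 25 had an unadjusted p under 0.05 in the direction of dKO (4.96% of all genes) and 0 in the other, and the median log2 fold change was 0.42. The smallest p was that of Kif15, a spindle motor, at 181, 191 and 216 in ctl and 267, 383 and 406 in dKO, with a log2 fold change of 0.85. It was followed by the chromosome motor Kif22 (log2 fold change 0.59) and by Foxm1 (log2 fold change 0.72), a transcription factor of late cell cycle genes. Foxm1 was at 238, 281 and 279 in ctl and 353, 490.4 and 469 in dKO, and the groups did not overlap. The further mitosis genes summed to 2244, 2417 and 3080 CPM in ctl and 3169, 3342 and 3234 CPM in dKO. In TPM these sums overlapped, with ctl replicate 3 at 2358 and dKO replicate 1 at 2318.

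Of 51 S phase and replication genes, which act before mitosis, 47 were above 0 and 13 had an unadjusted p under 0.05, all higher in dKO (4.96% of all genes higher, 4.04% lower), with a median of 0.43. The helicase factor Cdc45 was at 191, 195 and 204 in ctl and 407, 306 and 274 in dKO, with a log2 fold change of 0.74, and Hells and Rfc4 followed with 0.49 and 0.52. In summed TPM the S phase groups overlapped, with ctl replicate 3 at 1419 and dKO replicate 1 at 1378. The 14 core subunits of the anaphase-promoting complex, which are expressed in dividing and resting cells alike, had a median of 0.04, and 1 of them, Anapc15 (log2 fold change 0.43), had an unadjusted p under 0.05, a share near that of all genes. No gene of these 3 lists passed at an adjusted p under 0.05 with edgeR or with DESeq2.

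Markers of several cell types differed between the neuron groups beside the mitosis genes, and their part in the result was not tested. Of 13 neuroblast and progenitor markers, which include dividing cells, 10 were above 0 and 4 had an unadjusted p under 0.05 in the direction of dKO (4.96% of all genes higher, 4.04% lower, here and for the lists that follow), with a median of 0.44. They summed to 1429, 2364 and 2131 CPM in ctl and 2940, 2995 and 2157 CPM in dKO, so that ctl replicate 2 exceeded dKO replicate 3. Of 15 neuron markers 13 were above 0 and 2 passed, with a median of 0.54. Of 11 ependymal and choroid plexus markers tested, 8 were higher and 1 lower at that threshold, with a median of 0.90. Of these DESeq2 called Aqp1 at an adjusted p under 0.05 (0.613% of all genes). The 12 listed markers of this kind summed to 5185 to 9733 CPM in ctl and 8997 to 31636 CPM in dKO, with dKO replicate 1 highest. All 15 endothelial markers were below 0, 3 of them with an unadjusted p under 0.05, and their sum was 17918 to 20843 CPM in ctl and 8978 to 16469 CPM in dKO. All 15 oligodendrocyte markers were below 0, 2 of them with an unadjusted p under 0.05 and with a median of -0.91, and so were all 15 microglia markers, none of which passed, with a median of -0.71. OPC markers had a median of -0.53, astrocyte markers of -0.38 and pericyte and smooth muscle markers of 0.00, and at an unadjusted p under 0.05 an OPC marker was higher and another lower, an astrocyte marker was higher and 2 were lower, and 0 of the third list passed. Blood cell markers, which include haemoglobin genes, had a median of -0.17 with 2 lower, and summed to 6303 to 26061 CPM in ctl and 9220 to 38660 CPM in dKO. No listed marker gene had a count of 0 in all libraries.

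The second comparison asked the same of OPCs, the cells targeted by the deletion. Of the 40 members, 34 passed the filter of a mean normalised count of at least 10, and 26 of these were above 0 and 8 below, with a median log2 fold change of 0.06 (0.01 for all 17364 genes tested). Top2a and the microtubule depolymerase Kif2c were higher and the central spindle protein Prc1 was lower at an unadjusted p under 0.05. Kif2c, with a mean of 8.88 normalised counts in ctl and 19.3 in dKO, passed the filter only through dKO, so its difference is given as a description. These 2 of 34 in the direction of dKO, or 1 without Kif2c, stand beside 6.27% of all genes, and 1 of 34 in the other beside 5.27%. Aurka had a log2 fold change of -0.02 ± 0.36. No member passed at an adjusted p under 0.05 (0.00576% of all genes, smallest member value 0.321), and none with DESeq2 (1.72% of all genes, smallest member value 0.122, with 7 members left without an adjusted p).

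**Figure D4:**
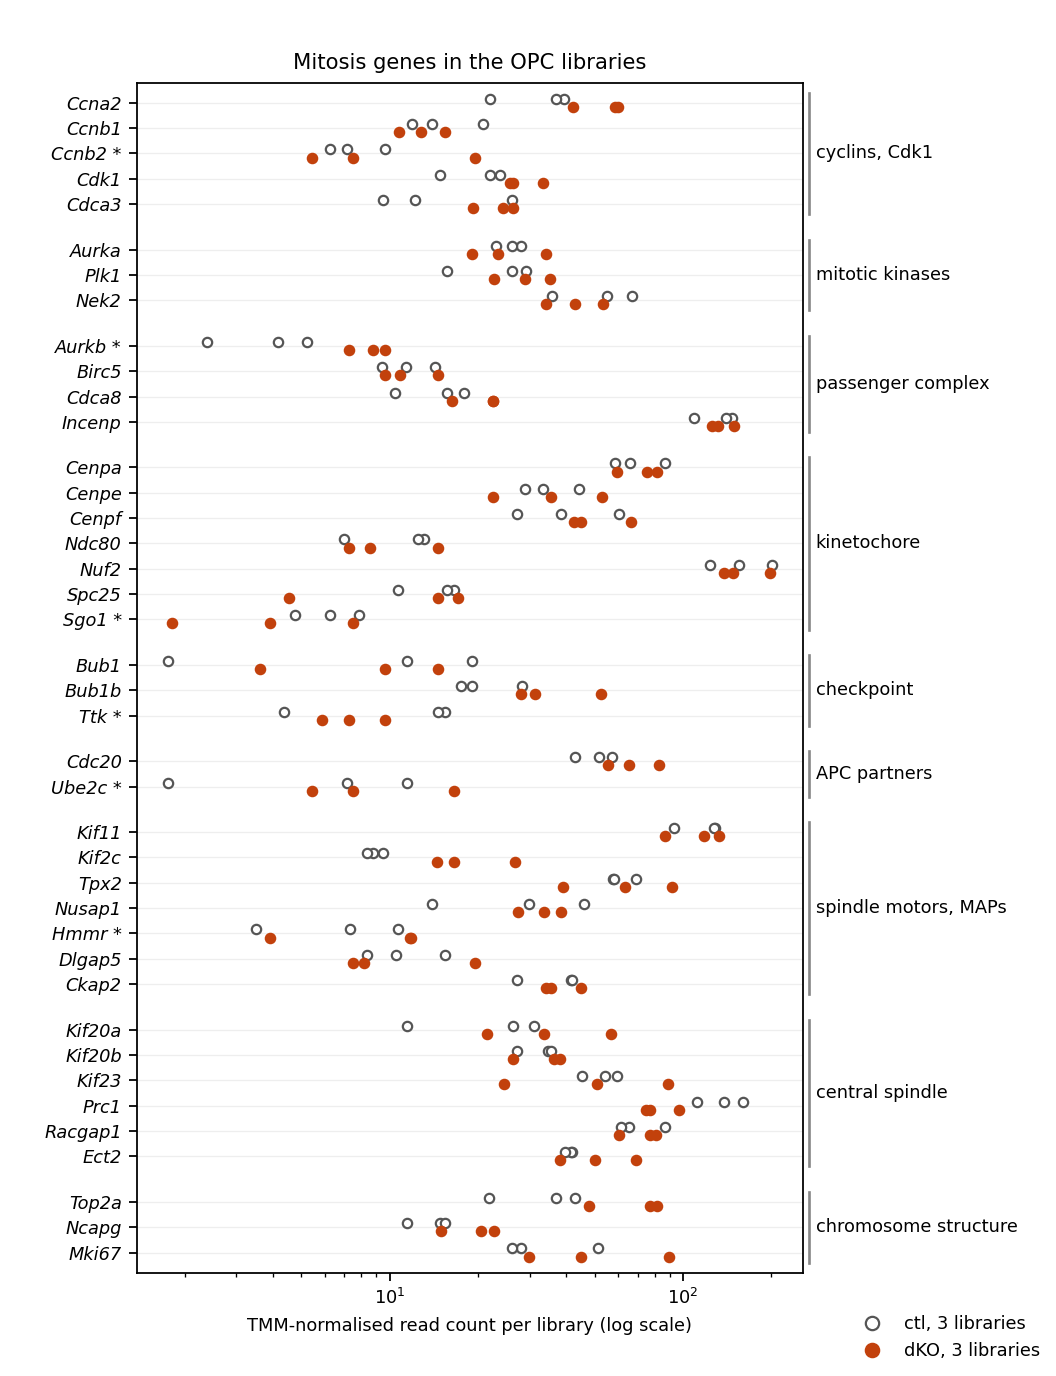
TMM-normalised read counts (x axis, log scale) of the 40 mitosis genes in each OPC library, ordered by role. Open circles are the 3 ctl libraries, filled circles the 3 dKO libraries, and a star marks the 6 genes below the filter. The circles of the groups are mixed for most genes. Those of Ccna2, Cdk1, Kif2c and Top2a, and of Aurkb below the filter, are higher in all dKO libraries, and those of Prc1 are lower.

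The precision was lower in OPCs than in neurons. Read counts of members were 2 to 218 per OPC library and 114 to 3285 per neuron library. The median coefficient of variation within a group was 25.6% in OPCs, where counting alone would give 18.4%, and 20.4% in neurons, where counting alone would give 4.45%. The median standard error of a member's log2 fold change was 0.37 in OPCs and 0.22 in neurons. A log2 fold change of 0.50, the median in neurons, was under 2 standard errors for 30 of the 34 members tested in OPCs, so a difference of that size could not be told from 0 for these members with these libraries.

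In OPCs the normalised counts of Top2a were 21.9, 36.9 and 42.8 in ctl and 47.9, 77.1 and 81.3 in dKO. The groups did not overlap, and the log2 fold change was 1.03 ± 0.35 (edgeR unadjusted p = 0.0189). Kif2c was at 8.75, 9.53 and 8.36 in ctl and 16.6, 14.5 and 26.7 in dKO, and its log2 fold change was 1.10 ± 0.43 (edgeR unadjusted p = 0.0303). Its highest library, dKO replicate 3, had 26.7 normalised counts, so each value rests on few reads, and all 3 ctl values lie under the filter of 10. Without ctl replicate 1 or without dKO replicate 3, no member was higher at an unadjusted p under 0.05 (5.26% and 6.15% of all genes in these fits). Without dKO replicate 1 or 2 the count was 3 (6.43% and 8.08% of all genes), without ctl replicate 2 or 3 it was 1 (3.61% and 4.85%), and a model with Y-linked counts as a covariate gave 2 (8.03%). In OPCs that covariate sets apart dKO replicate 2 alone, so this model nearly repeats the fit without that library. Kif2c was among the 3, the 3 and the 2, which without it were 2, 2 and 1. DESeq2 gave 1 (6.67%).

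Prc1, which bundles antiparallel microtubules of the central spindle, was at 138, 161 and 112 in ctl and 77.2, 97.1 and 74.9 in dKO. Every dKO library was below every ctl library, and the log2 fold change was -0.72 ± 0.23 (edgeR unadjusted p = 0.0123, adjusted p = 0.321). Without ctl replicate 2 its unadjusted p was 0.0511. In neurons the log2 fold change of Prc1 was 0.53 with overlapping groups, and the difference between the cell types was not tested.

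Non-overlapping groups with dKO higher were found for 4 of the 34 members tested, against 7.41% of all genes, and with dKO lower for 1, against 9.55%. The former 4 held Top2a, Ccna2, Cdk1 and Kif2c, the last of which was tested only because of its dKO values. Ccna2 was at 39.4, 36.9 and 21.9 in ctl and 42.0, 59.9 and 58.8 in dKO, with a log2 fold change of 0.71 (edgeR unadjusted p = 0.0654). Cdk1 was at 14.9, 23.8 and 21.9 in ctl and 33.2, 26.3 and 25.7 in dKO, with a log2 fold change of 0.50 (edgeR unadjusted p = 0.196), which was 0.31 without ctl replicate 1. The proliferation marker Mki67 was at 28.0, 51.2 and 26.1 in ctl and 45.0, 29.9 and 89.9 in dKO. The groups overlapped, and dKO replicate 3 stood above the other libraries. Its log2 fold change was 0.65 ± 0.47, and it was 0.092 without dKO replicate 3 and 1.01 without ctl replicate 2.

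Aurka was at 28.0, 26.2 and 23.0 in ctl and 23.5, 19.1 and 34.2 in dKO in OPCs, with the highest and the lowest library both in dKO. The members with the highest CPM in OPCs were Nuf2, Incenp and Kif11. Nuf2, a subunit of the Ndc80 complex, was at 155, 124 and 202 in ctl and 138, 198 and 148 in dKO. Incenp was at 147, 141 and 109 in ctl and 125, 149.7 and 132 in dKO, and the spindle motor Kif11 at 129, 92.9 and 127 in ctl and 87.0, 118 and 133 in dKO. Their groups overlapped, and the log2 fold changes were 0.01, 0.04 and -0.05. The sign of each, and of Aurka, turned with the library left out.

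The 6 members below the filter were Aurkb, Ccnb2, Hmmr, Sgo1, Ttk and Ube2c, with 2 to 20 reads per library. Aurkb had 6, 2 and 4 reads in ctl and 9, 8 and 9 in dKO, which does not overlap but was not tested. The remaining 24 members with an OPC value that passed the filter had an unadjusted p above 0.05 and overlapping groups, with Bub1b (0.78) and Kif20a (0.70) highest and Nek2 (-0.27) lowest in log2 fold change.

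The 40 genes summed to 81.9, 90.2 and 87.1 CPM in ctl OPCs and 85.9, 92.9 and 104 CPM in dKO OPCs. The means of 86.4 ± 4.21 and 94.4 ± 9.29 CPM (SD, n = 3) gave a ratio of 1.09, and the groups overlapped.

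Further mitosis genes lay on both sides of 0 in OPCs. Of 68 tested, 37 were above 0 and 31 below, 2 were higher and 3 lower at an unadjusted p under 0.05, and the median was 0.04. Both counts are below the shares of all genes (6.27% higher, 5.27% lower), so the genes named here are a description. The 3 with the smallest p were all lower in dKO. Bora, which activates Aurka towards Plk1, was at 108, 135 and 126 in ctl and 88.0, 77.1 and 71.7 in dKO (log2 fold change -0.64). Securin (Pttg1), which blocks separase until anaphase, was at 826, 747 and 668 in ctl and 391, 403 and 46.0 in dKO (log2 fold change -1.41), with dKO replicate 3 far below the other libraries. Cenpo, a centromere protein, had a log2 fold change of -0.46. Of 48 S phase genes, Mcm5 (log2 fold change 0.52) alone had an unadjusted p under 0.05, and the median was -0.02. Of the 14 core subunits of the anaphase-promoting complex none did, and their median was also -0.02.

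Markers of other cells differed between the OPC groups, and their part in the values of the mitosis genes was not tested. All 15 microglia markers were higher at an unadjusted p under 0.05 (6.27% of all genes), 12 of them also at a DESeq2 adjusted p under 0.05, with a median of 1.32 and sums of 302 to 372 CPM in ctl and 394 to 1216 CPM in dKO. Of 13 astrocyte markers 11 were higher at the unadjusted threshold and 7 by DESeq2's adjusted p, with a median of 1.10 and sums of 1369 to 2319 CPM in ctl and 2270 to 6243 CPM in dKO. Oligodendrocyte markers had a median of -0.42 with 5 lower (5.27% of all genes), of which DESeq2 called Aspa, and OPC markers a median of 0.57 with 1 higher. Of the neuroblast and progenitor markers 3 were higher, with a median of 0.55 and sums of 251 to 329 CPM in ctl and 324 to 427 CPM in dKO. Endothelial, neuron, blood cell, pericyte and smooth muscle, and ependymal and choroid plexus markers had medians of 0.33, 0.35, 0.39, 0.30 and 0.09. The libraries with the highest microglia sums, dKO replicates 3 and 1 at 1216 and 924 CPM, were not the same pair as those with the highest astrocyte sums, dKO replicates 2 and 3 at 6243 and 3500 CPM.

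The genes were expressed at different levels in the 2 sets of libraries. Since the tables were counted in different ways, the levels are given side by side without a test, in TPM for neurons as deposited and for OPCs as the deposited FPKM values rescaled to TPM. The median of the members in ctl was 1.01 TPM in OPCs and 16.5 TPM in neurons, whereas the median of all genes tested was 14.3 TPM in OPCs and 15.4 TPM in neurons. For all 40 members, the 6 neuron values lay above the 6 OPC values. The gap was widest for Ube2c and smallest for Incenp. As given above, the neuron libraries held more TPM of endothelial and of blood cell markers than of neuron markers. The OPC libraries held more TPM of oligodendrocyte than of OPC markers. The levels therefore describe the libraries and cannot be assigned to neurons or OPCs as cells.

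**Figure D5:**
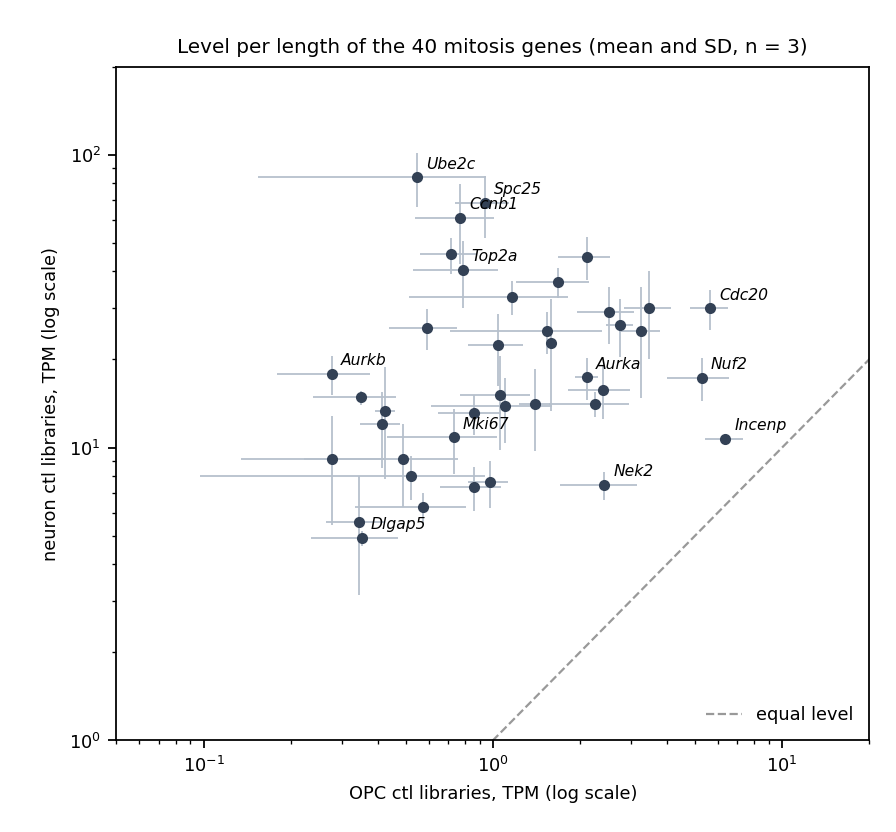
Mean TPM of the 40 mitosis genes in ctl OPC libraries (x axis) and ctl neuron libraries (y axis), both on log scales, with bars of 1 SD over 3 libraries and a dashed line where the levels are equal. All points lie above the line, from Incenp with a ratio of 1.68 to Ube2c with a ratio of 152.

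Incenp had the highest level in ctl OPCs, at 6.37 ± 0.962 TPM (SD, n = 3), followed by Cdc20 at 5.66 ± 0.839 TPM and Nuf2 at 5.27 ± 1.28 TPM, and these differed by no more than the sum of their SDs. They had 3 of the 4 lowest ratios of neuron to OPC libraries. Incenp stood at 10.7 ± 0.343 TPM in ctl neurons and Nek2, second lowest in ratio at 3.07, at 7.45 ± 0.814 TPM. The highest levels in ctl neurons were those of Ube2c at 83.7 ± 17.3 TPM, Spc25 at 68.3 ± 16.4 TPM and Ccnb1 at 60.8 ± 18.4 TPM, which did not differ beyond their spread. In OPCs the same genes were at 0.549 ± 0.395, 0.938 ± 0.196 and 0.773 ± 0.234 TPM. Aurka was at 2.12 ± 0.194 TPM in OPCs and 17.4 ± 2.79 TPM in neurons, a ratio of 8.18.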

How the data were processed

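RNA from 12 pools of cortical cells, 6 of OPCs and 6 of neurons, was sequenced by a company (Novogene). For OPCs the authors deposited whole read counts and FPKM values (scaled by gene length and depth) per Ensembl gene. For neurons the authors deposited estimated counts and TPM values per RefSeq transcript. Their methods name HISAT2, GRCm38 and featureCounts without setting the cell types apart, and their processing notes list the build mm39. Fractional counts and TPM per transcript are not what featureCounts writes per gene, so how the neuron table was made is unclear. These were summed per gene, and the counts were rounded. The deposited tables also hold the authors' fold changes and p-values, which were not used. The library kit does not mark strand, so reads of overlapping genes cannot be told apart.

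The members and gene lists were chosen with earlier results of these data known. Groups follow the sample titles. In each cell type, genes with a mean normalised count of at least 10 were tested, dKO against ctl, with the quasi-likelihood method of edgeR (version 4.0.16 in R 4.3.3) after TMM scaling, with Benjamini-Hochberg adjustment and a threshold of 0.05. Standard errors were derived from the fold change and its F statistic, and normalised counts use the effective library sizes. DESeq2 1.42.0, other scalings, no filter, a replicate block and each library left out were alternatives, and terms or subsets for Y-linked counts were added after the data had been seen. The scripts were tested on simulated data. Replicates differed by more than sampling noise (chi-square per gene of at least 15.7). Summed levels are given as a description, with no test, since the members were chosen with earlier results known. Members named with values are Aurka, Mki67, Top2a, Cdk1, the 3 with the highest CPM, those with an unadjusted p under 0.05 and up to 15 with non-overlapping groups, and of each pathway list the 3 with the smallest p. CPM were scaled by the same effective library sizes, except those of the Y-linked genes, which were scaled by total counts. The 94 symbols of further mitosis genes stand for 90 genes, since some are older names.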

Additional observations from a re-analysis of the deposited data

How the results depend on the processing

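In neurons all 40 members stayed above 0 in each alternative, and none of the 23 named members changed direction. The number with an unadjusted p under 0.05 went from 20 to between 8 and 39 when 1 library was left out, and the median log2 fold change from 0.50 to between 0.36 and 0.79. Without the libraries that held Y-linked counts, it was 9. DESeq2 called 2 members at an adjusted p under 0.05, where edgeR called 0. Library size alone gave 27 members at an unadjusted p under 0.05 (6.42% of all genes). In OPCs the number higher at that threshold was 1 with DESeq2 (6.67% of all genes) and between 0 and 3 with 1 library left out (0 to 2 without Kif2c), the number lower between 0 and 1, and the median between 0.027 and 0.23. The sign of Nuf2 turned to -0.0068 with library size alone, and that of Aurka to 0.011 without the filter. With a term for Y-linked counts, which in OPCs sets apart dKO replicate 2 alone and nearly repeats the fit without it, Aurka was at 0.16, Nuf2 at -0.17 and Incenp at -0.042. With 1 library left out, Aurka ranged from -0.29 to 0.16, Nuf2 from -0.17 to 0.20, Kif11 from -0.20 to 0.10 and Incenp from -0.10 to 0.12. The other 6 named members kept their direction in OPCs. The log2 fold change of Mki67 in OPCs ranged from 0.092 to 1.01 with 1 library left out. The causes were not tested. The members had 29.5 reads per OPC library at the median, and both counting error and the spread between replicates limit these values.

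Replicate numbers were not treated as pairs. The correlation of deviations between libraries of the same number was -0.103, 0.141 and 0.108 in OPCs and 0.165, -0.0855 and -0.0826 in neurons, and not every library correlated best with its own number. With the replicate block, 25 members in neurons and 1 in OPCs were higher at an unadjusted p under 0.05 (4.84% and 7.07% of all genes in these fits), and 0 passed at an adjusted p under 0.05 in either.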
